A study of Homo sapiens with 8 samples.

Results

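The genes described here are 10 transcription factors that are widely used to define the endothelial gene programme: the ETS factors ERG, FLI1, ETS1 and ELK3, the SOX factors SOX7, SOX17 and SOX18, and GATA2, KLF2 and TAL1. They were taken by gene symbol from a table of 23346 genes, and all 10 were found in it. The table holds polyadenylated RNA sequenced from cells of the line hCMEC/D3, which come from the microvessels of human brain, were made to divide without limit, and serve as a stand-in for the blood-brain barrier in culture. The 8 libraries carry the same labels apart from the replicate number, with no treatment, time or genotype, so they form 1 group and the design holds no comparison between conditions. hCMEC/D3 is known as a clonal line that carries introduced immortalising genes, so its levels describe 1 cell line rather than brain endothelium in general. Whether the replicates were separate cultures is not stated in the labels, so p-values measure only the spread between these libraries, which may be technical. In bulk RNA, fewer expressing cells and less RNA per cell cannot be told apart.

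ETS factors bind DNA through a winged helix domain that recognises a GGAA core, and most endothelial enhancers and promoters carry such sites. ERG and FLI1 are closely related activators that maintain endothelial identity, ETS1 is linked to angiogenic growth, and ELK3 is a ternary complex factor that acts with serum response factor and can repress its targets. SOX7, SOX17 and SOX18 form the SOXF group, which takes part in arterial and lymphatic specification and in vessel integrity. GATA2 and TAL1 are shared between blood and endothelial cells and act in complexes with LMO2 and LDB1. KLF2 is induced by laminar flow through a kinase cascade that ends on MEF2 factors, and it drives an anti-thrombotic, anti-inflammatory programme.

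Total counts per library ranged from 69388544 to 90205244. None of the 186768 counts was odd, which makes the smallest step 2 counts. The libraries differed along transcript length: the slope of a library's deviation on log2 length lay between 0.08 and 0.14 per doubling in replicates 1, 3, 4, 5 and 6, and was -0.22, -0.10 and -0.33 in replicates 2, 7 and 8. Levels are given in 3 ways. CPM are counts scaled to a common library size, with TMM factors, RPKM are CPM per kilobase of the reference transcript, and CQN values are the authors' own log2 values after an adjustment for gene length and GC content.

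Promoter sequence from RefSeq (build GRCh38.p14) was searched for 5 of the 10 members, namely ERG, ELK3, GATA2, KLF2 and TAL1. The remaining members were not searched, which does not mean that sequence was lacking for them. The windows of ELK3, KLF2 and TAL1 are printed because they hold the ETS, MEF2 and GATA matches found in these 5 windows. Each window holds the 250 bases before the outermost annotated start of the gene, read 5′ to 3′ on the gene's strand. Capitals mark matches on either strand. The ETS factors were searched as GGAAG and the GATA factors as GATAA. For KLF and SP factors the letters were CACCC, for SOX factors they were ACAAT, and the E-box bound by TAL1 dimers was read as CAGATG. The MEF2 box and the CArG box of serum response factor were searched by their usual consensus, and no match overlapped that of another motif in these 3 windows.
ELK3 (chr12:96194125-96194374, plus strand): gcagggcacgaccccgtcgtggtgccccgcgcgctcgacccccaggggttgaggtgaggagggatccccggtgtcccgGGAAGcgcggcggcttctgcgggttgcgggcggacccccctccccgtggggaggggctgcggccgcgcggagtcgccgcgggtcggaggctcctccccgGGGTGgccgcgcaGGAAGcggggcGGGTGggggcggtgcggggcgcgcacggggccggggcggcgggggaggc
KLF2 (chr19:16324576-16324825, plus strand): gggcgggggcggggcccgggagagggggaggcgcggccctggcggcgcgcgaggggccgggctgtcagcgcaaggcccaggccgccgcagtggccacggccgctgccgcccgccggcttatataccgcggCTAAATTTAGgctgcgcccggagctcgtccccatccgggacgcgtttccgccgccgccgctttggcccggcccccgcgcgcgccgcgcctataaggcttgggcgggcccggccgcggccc
TAL1 (chr1:47232336-47232585, minus strand): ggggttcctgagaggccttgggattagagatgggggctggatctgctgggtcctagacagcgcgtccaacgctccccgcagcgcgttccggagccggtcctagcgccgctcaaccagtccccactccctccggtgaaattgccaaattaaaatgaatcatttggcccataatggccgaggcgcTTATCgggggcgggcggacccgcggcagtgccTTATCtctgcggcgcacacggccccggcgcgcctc
The KLF2 window held a MEF2 box at 120 to 111 bases before the start, a palindrome that reads the same on both strands. Among 34788 windows of the same length, 2.82% held a MEF2 box. The TAL1 window held 2 GATA matches, at 67 to 63 and 35 to 31 bases before the start, both on the opposite strand, and 20.5% of all windows held at least 1. The ELK3 window held 2 ETS matches and 2 KLF and SP matches, which 65.1% and 54.7% of all windows also held at least once. The ERG and GATA2 windows held 3 and 4 KLF and SP matches, and none of the other motifs. The SOX, E-box and CArG motifs had no match in any of the 5 windows, where 24.7%, 12.2% and 1.17% of all windows held one. A match describes the letters only. The counts are per gene, so which of several annotated starts was used in these libraries is not known.

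All 10 members were detected, that is they had at least 1 CPM in each of the 8 libraries, where 51.3% of all listed genes were. The lowest count of any member in any library was 734, for SOX18 in replicate 1, so counting error was small beside the spread between libraries. The median of the members' mean CPM was 64.7, against 1.97 over all listed genes and 37.7 over the detected genes.

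ERG (chromosome 21, 39739183 to 40033704, minus strand, build GRCh37, 10 exons in the reference transcript) ranged from 132 CPM in replicate 7 to 199 CPM in replicate 1, with a median of 164. Its mean was 166 ± 20.5 CPM (SD, n = 8). FLI1 (chromosome 11, 128563811 to 128683162, plus strand, 9 exons) ranged from 132 to 180 CPM with a median of 166 and a mean of 159 ± 16.5 CPM (SD, n = 8). ERG and FLI1 had the smallest coefficients of variation among the members, 12.4% and 10.3%, and both were lowest in replicate 7 and highest in replicate 1. The FLI1 gene overlaps the antisense transcript SENCR, listed in the table as LOC100507392. That row had 17.7 ± 5.10 CPM (SD, n = 8), and use of strand in the counting is not given in the sources used here, so reads of this pair may have been exchanged.

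ETS1 (chromosome 11, 128328656 to 128457453, minus strand, 10 exons) had 193, 85.9, 219, 198, 247, 198, 187 and 69.6 CPM in replicates 1 to 8. Replicates 2 and 8 were far below the other 6 libraries, whose lowest value was 187 CPM. The mean was 175 ± 62.9 CPM (SD, n = 8). ELK3 (chromosome 12, 96588207 to 96661606, plus strand, 5 exons) had 89.2, 36.3, 102.5, 92.0, 79.8, 91.9, 52.7 and 25.1 CPM, with a mean of 71.2 ± 29.1 CPM (SD, n = 8). It was lowest in replicates 8, 2 and 7, in that order. The highest library exceeded the lowest 4.08-fold for ELK3 and 3.54-fold for ETS1, compared with 1.51-fold for ERG and 1.36-fold for FLI1.

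SOX18 (chromosome 20, 62679079 to 62680979, minus strand, 2 exons) had 10.8, 50.7, 20.8, 14.7, 26.7, 38.0, 26.6 and 64.8 CPM in replicates 1 to 8. The highest library exceeded the lowest 6.02-fold, the widest span of any member, and replicates 8 and 2 were at the top. Its mean was 31.6 ± 18.5 CPM (SD, n = 8). SOX17 (chromosome 8, 55370495 to 55373456, plus strand, 2 exons) ranged from 24.0 CPM in replicate 8 to 43.1 CPM in replicate 6, with a median of 29.9 and a mean of 31.4 ± 7.55 CPM (SD, n = 8). SOX7 (chromosome 8, 10581278 to 10588022, minus strand, 2 exons) ranged from 30.2 CPM in replicate 7 to 57.7 CPM in replicate 6, with a median of 50.7 and a mean of 47.7 ± 9.13 CPM (SD, n = 8). The 3 SOXF genes thus had their lowest values in 3 different libraries. Replicates 2 and 8, at the top for SOX18 and at the bottom for ETS1 and ELK3, had the most negative slopes on length. The reference transcript of SOX18 has 1862 bases and those of ETS1 and ELK3 have 5139 and 4201, and that of ERG has 4904. ERG was also lowest in replicates 7, 8 and 2, at 132, 152 and 156 CPM, though it moved less. With length and GC content taken out library by library, the SD on the log2 scale was 0.55 for SOX18, 0.47 for ETS1, 0.56 for ELK3 and 0.14 for ERG, against a median of 0.16 over all detected genes.

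GATA2 (chromosome 3, 128198265 to 128212030, minus strand, 6 exons) was the most abundant member by mean CPM. It ranged from 141 CPM in replicate 1 to 239 CPM in replicate 6, with a median of 184 and a mean of 183 ± 32.0 CPM (SD, n = 8). KLF2 (chromosome 19, 16435651 to 16438339, plus strand, 3 exons) ranged from 44.6 CPM in replicate 1 to 78.95 CPM in replicate 2, with a median of 58.0 and a mean of 58.1 ± 10.3 CPM (SD, n = 8). TAL1 (chromosome 1, 47681963 to 47695443, minus strand, 5 exons) ranged from 35.5 CPM in replicate 7 to 58.4 CPM in replicate 8, with a median of 49.3 and a mean of 49.2 ± 7.56 CPM (SD, n = 8). For these 3 genes the highest library was within 1.77-fold of the lowest. Antisense transcripts are also annotated over GATA2, TAL1, ETS1, SOX7, ELK3 and ERG, and their reads may be included in these counts.

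**Figure D1:**
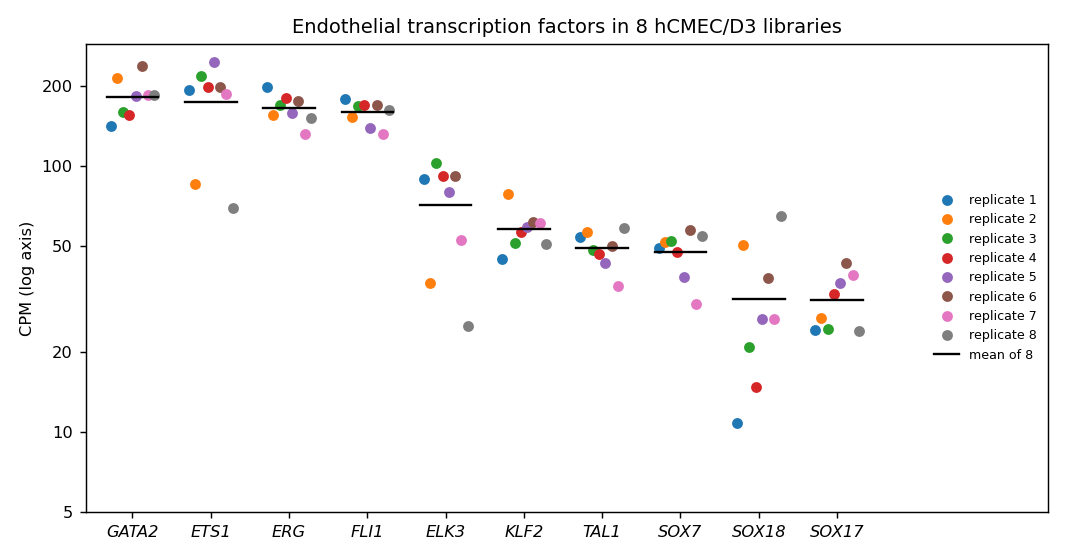
CPM (log axis) of the 10 members in each of the 8 hCMEC/D3 libraries, coloured by replicate, with a black bar at the mean. ETS1 and ELK3 are lowest in replicates 2 and 8, SOX18 runs from 10.8 to 64.8 CPM, and ERG and FLI1 stay between 132 and 199 CPM.

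Whether a member varied more than genes of like abundance was tested with edgeR's goodness-of-fit test over all 11980 detected genes. SOX18, ELK3 and ETS1 lay above the trend, 3 of the 10 members, where 4.66% of all detected genes did. The coefficient of variation of SOX18 was 58.4% against a fitted trend of 23.9% (adjusted p = 5.69e-05, edgeR). For ELK3 it was 40.8% (adjusted p = 0.00634, edgeR) and for ETS1 36.0% (adjusted p = 0.0355, edgeR), against trends of 23.4% and 23.3%. The other 7 members had unadjusted p-values from 0.440 to 0.985 and adjusted values that round to 1, and their coefficients of variation ran from 10.3% for FLI1 to 24.1% for SOX17. The call for ELK3 was lost without replicate 8 (adjusted p = 0.0608, edgeR), and that for ETS1 without replicate 2, 5 or 8 (0.142, 0.0974 and 0.198). SOX18 kept its call without any single library (2.76e-05 to 0.0116) and without replicates 2 and 8 together (9.61e-07).

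**Figure D2:**
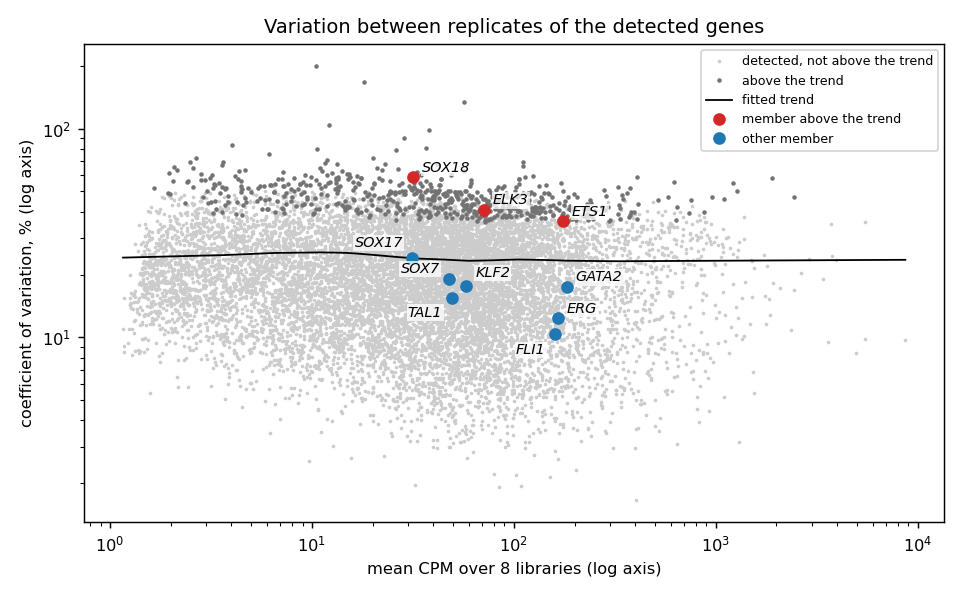
Coefficient of variation over the 8 libraries against mean CPM (both log axes) for the 11980 detected genes, with the fitted trend as a line, genes above the trend in dark grey and the members in colour. SOX18, ELK3 and ETS1 (red) lie above the trend at 58.4%, 40.8% and 36.0%, and FLI1 lies lowest of the members at 10.3%.

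The spread of each member was then set beside that of the authors' CQN values. Over the detected genes, the median SD between libraries was 0.25 on log2(CPM + 1) and 0.16 on CQN values. ELK3 had an SD of 0.73 on log2(CPM + 1) and 0.79 on CQN values, so its spread did not shrink with the adjustment, and replicate 8 stayed lowest. ETS1 went from 0.67 to 0.41, with replicates 8 and 2 still lowest at CQN values of 6.70 and 6.90. SOX18 went from 0.84 to 0.55, and its order changed: the highest library on CQN values was replicate 6 at 8.09, while replicate 8 had 7.63 and replicate 1 stayed lowest at 6.34.

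KLF2 and SOX17 spread more on CQN values than on CPM. The SD of KLF2 was 0.24 on log2(CPM + 1) and 0.47 on CQN values, where replicate 8 was lowest at 6.62 and the others ran from 7.44 to 8.13. The SD of SOX17 was 0.33 and 0.50 on these scales. When length and GC content were taken out in the count model, the SD of KLF2 was 0.27 and it did not pass the test for excess variation (adjusted p = 0.873, edgeR), so its wider spread was seen on the authors' CQN values only. SOX17, with an SD of 0.48, passed (adjusted p = 0.00165, edgeR). SOX18, ELK3 and ETS1 passed it there too (adjusted p = 1.22e-05, 1.94e-06 and 0.00111, edgeR). ERG and FLI1 stayed narrow on CQN values, with SDs of 0.18 and 0.19. Over the detected genes, though, these were the 55.8th and 61.4th percentiles of spread, compared with the 30.1th and 22.1th on log2(CPM + 1).

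**Figure D3:**
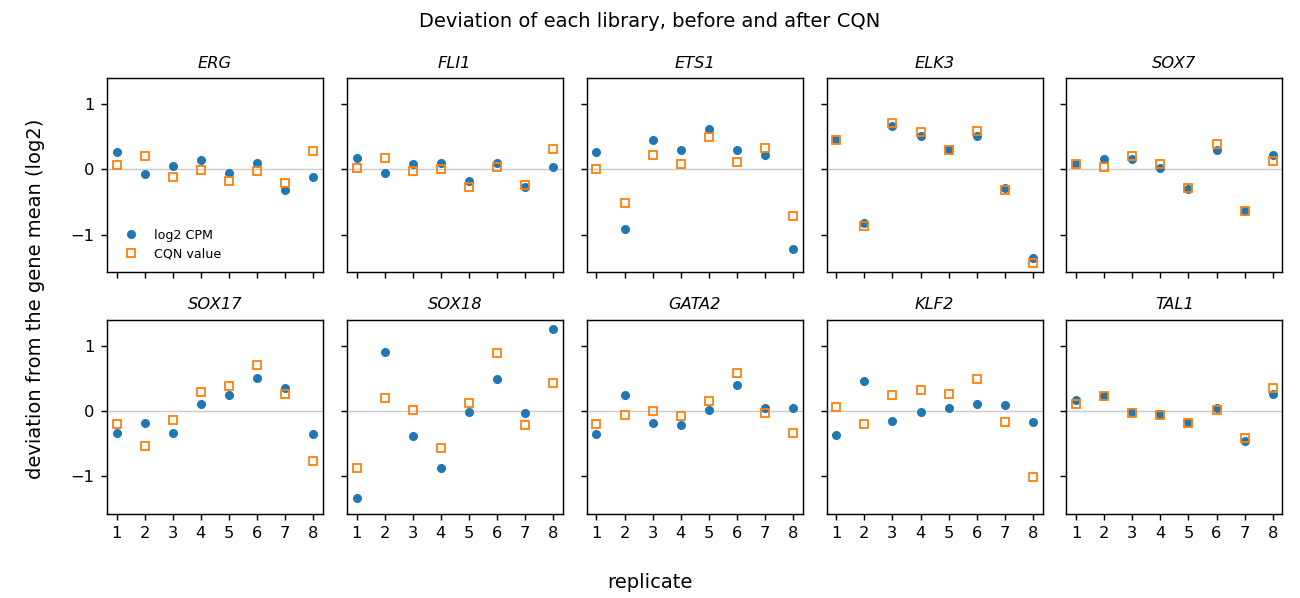
Deviation of each library from the gene's mean (log2), by replicate, for log2 CPM (filled circles) and the authors' CQN values (open squares). For ELK3 the symbols nearly coincide and replicate 8 lies lowest; for KLF2 replicate 8 lies lowest only on CQN values, at 6.62; for SOX18 replicate 8 lies highest on CPM and replicate 6 on CQN values.

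Some members varied together across the libraries. As a description over 8 libraries, Pearson's r between CQN values was 0.95 for ERG and FLI1, 0.95 for ERG and TAL1 and 0.94 for FLI1 and TAL1. On log2(CPM + 1) the same pairs had r of 0.87, 0.50 and 0.69. ETS1 ran against this group on CQN values, with r of -0.97 to ERG, -0.94 to FLI1 and -0.88 to TAL1. On log2(CPM + 1) these were 0.31, -0.03 and -0.63, so the opposition of ETS1 to ERG held on the adjusted scale only. ETS1 and ELK3 had r of 0.78 on CQN values and 0.92 on log2(CPM + 1). Of the 45 pairs of members, 13 changed sign between the scales. These values share libraries, depth and the length gradient.

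The detected genes whose CQN values followed each member most closely over the 8 libraries were also listed. For ETS1 these were AKAP12 (a scaffold protein for protein kinase A; r = 0.995), NAA35 (0.994) and PTBP1 (0.993). AKAP12, which itself lay above the variation trend (adjusted p = 0.0294, edgeR), and NAA35 also followed ETS1 on log2(CPM + 1), with r of 0.998 each, whereas PTBP1 had -0.11. For GATA2 they were NRARP, a Notch target that dampens Notch signalling (0.966), SMAD7, an inhibitor of TGF-beta signalling (0.942), and IRF2BPL (0.940). In replicate 6, where GATA2 was highest, NRARP had 74.5 CPM and SMAD7 had 100.5 CPM, their highest values too.

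For ERG the closest were C5orf4, PLAG1 and ORAI3 (0.992, 0.991 and 0.990), and for FLI1 they were TIA1, GIMAP8 and GATSL3 (0.994, 0.986 and 0.986). For TAL1 they were C1orf115, EPHA4 and PCMTD2 (0.991, 0.979 and 0.978), and for ELK3 they were FICD, C4orf29 and EXOC6B (0.998, 0.998 and 0.997). SOX7 was followed by DDOST and WDR19 (0.970 and 0.962), SOX17 by KIAA1683, TES and VPS33A (0.980, 0.965 and 0.962), and SOX18 by LSG1, FAM73B and MTCP1 (0.940, 0.925 and 0.922). KLF2 was followed by TMEM181, TAF1D and ZNF432 (0.994, 0.985 and 0.982). These 3 had r of -0.31, -0.22 and -0.25 to KLF2 on log2(CPM + 1). LSG1 had -0.60 to SOX18 on that scale and ORAI3 -0.17 to ERG, while the other genes in this paragraph had positive r. On log2(CPM + 1), 3 of these 30 genes were again among the 3 closest to the same member: AKAP12, NRARP and KIAA1683. With 8 libraries and 11980 detected genes, high values of r arise for many genes.

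Compared per length, the members ran from GATA2 at 54.1 ± 9.45 RPKM to TAL1 at 10.6 ± 1.63 RPKM (SD, n = 8). Between them came FLI1 (41.7 ± 4.31), ETS1 (34.0 ± 12.2), ERG (33.8 ± 4.18), KLF2 (20.6 ± 3.64), SOX18 (16.99 ± 9.93), ELK3 (16.9 ± 6.92), SOX7 (14.8 ± 2.84) and SOX17 (13.4 ± 3.22). Among the 11636 detected genes with a reference length, GATA2 was at the 87.4th percentile of RPKM and TAL1 at the 47.8th. No 2 neighbours in this order had ranges that were apart. Only ERG over KLF2 held in 8 of 8 libraries, by 0.72 ± 0.36 on the log2 scale (SD). GATA2 exceeded FLI1 in 7 of 8 libraries, whereas ETS1 exceeded ERG in 5 and SOX18 exceeded ELK3 in 3. On CQN values GATA2 and FLI1 were again highest and TAL1 lowest, but KLF2 came next after FLI1. There KLF2 exceeded ERG by 0.18 ± 0.60 (SD) in 6 of 8 libraries, so the order of ERG and KLF2 depends on the scale.

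**Figure D4:**
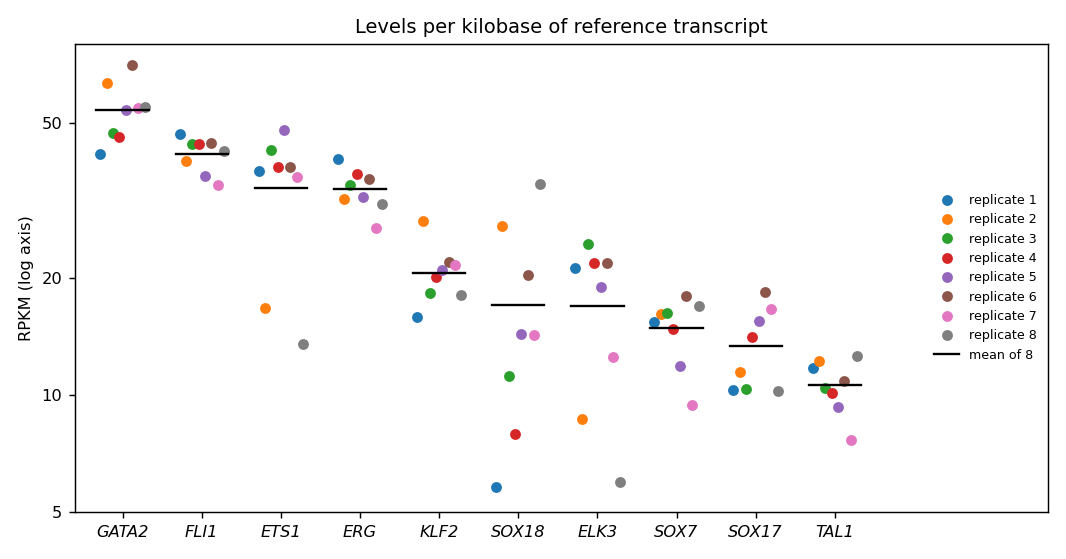
RPKM (CPM per kilobase of the reference transcript, log axis) of the members in the 8 libraries, ordered by mean, with a black bar at the mean. The order runs from GATA2 at 54.1 to TAL1 at 10.6 RPKM, and the ranges of neighbouring genes overlap throughout.

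Related genes were then compared within the same libraries, in 13 pairs, as log2 ratios of RPKM + 0.1, tested by flipping signs (an exact permutation test, two-sided). With 8 libraries the smallest p this test can give is 0.00781, and adjustment was over the 13 pairs. ERG was below FLI1 by -0.30 ± 0.09 (SD, n = 8) in 8 of 8 libraries (exact permutation p = 0.00781, adjusted p = 0.0169), but this turned to 0.15 when the longest transcript of each gene set the length and to 0.05 on CPM, so the order of ERG and FLI1 depends on the length used. ETS1 exceeded ETS2, a related factor with the same binding domain, by 0.89 ± 0.54 in 7 of 8 libraries (exact permutation p = 0.0156, adjusted p = 0.0254, n = 8). This call was lost when any of replicates 1 to 7 was left out (adjusted p = 0.0508, exact permutation). It held without replicate 8 (adjusted p = 0.0254, exact permutation), the library where ETS1 lay just below ETS2. With 7 libraries the test allows no permutation p below 0.0156, and ERG to FLI1 kept its call without any single library. ETS1 and ERG differed by -0.10 ± 0.64 (exact permutation p = 0.680, adjusted p = 0.803, n = 8), from -1.19 to 0.57 between libraries.

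ELK3 exceeded its paralog ELK4 by 0.45 ± 0.26 in 7 of 8 libraries (exact permutation p = 0.0156, adjusted p = 0.0254, n = 8), which turned to -0.84 on CPM, without the length scaling, and was lost in the same 7 cases (adjusted p = 0.0508). Against ELK1 the ratio was 0.04 ± 0.79 (exact permutation p = 0.883, adjusted p = 0.956, n = 8), from -1.32 to 0.74. ELK1 itself varied little, at 43.0 ± 2.30 CPM (SD, n = 8). The 3 SOXF genes were not separated from each other: the ratio of SOX18 to SOX17 was 0.16 ± 0.92, that of SOX18 to SOX7 was 0.00164 ± 0.85 and that of SOX17 to SOX7 was -0.16 ± 0.55 (exact permutation p = 0.625, 1 and 0.430, adjusted p = 0.803, 1 and 0.621, n = 8). On CQN values SOX18 exceeded both, by 1.29 over SOX17 and 0.95 over SOX7 (adjusted p = 0.0117 in each exact permutation test).

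GATA2 had nearly all of the GATA transcripts. GATA6 had 2.51 ± 0.781 CPM (SD, n = 8), and the log2 ratio of GATA2 to GATA6 was 6.13 ± 0.48 in 8 of 8 libraries (exact permutation p = 0.00781, adjusted p = 0.0169). GATA3 had at most 0.140 CPM and no counts in 1 library, and GATA1, GATA4 and GATA5 were likewise below 1 CPM on average. Where no count was recorded, the level could be as high as 0.0665 to 0.0880 CPM, which is 3 steps of 2 counts and covers counting error only.

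KLF2 exceeded KLF4, the other flow-induced KLF, by 0.92 ± 0.75 in 8 of 8 libraries, and lay below KLF6 by -2.71 ± 0.57 in 8 of 8 (exact permutation p = 0.00781, adjusted p = 0.0169 for each, n = 8). On CQN values these differences were 1.88 and -1.95, in the same directions. TAL1 lay below its paralog LYL1 by -1.04 ± 0.57 in 8 of 8 libraries (exact permutation p = 0.00781, adjusted p = 0.0169, n = 8), but on CPM the ratio was 0.60 in the opposite direction (adjusted p = 0.0564). The ratio was -1.33 on CQN values (adjusted p = 0.0117, exact permutation) and -1.08 with the longest transcripts. LYL1 was highest in replicates 8 and 2, at 64.4 and 49.1 CPM, and lay from 19.9 to 38.4 CPM elsewhere. Its reference transcript has 1481 bases, and replicates 8 and 2 had the most negative slopes on length. The part of length in this was not tested.

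The weight of the members within their families was described by their share of the family's summed RPKM. ETS1, ERG, FLI1 and ELK3 together made up 42.0% ± 3.20 of the summed RPKM of the 28 ETS genes (SD, n = 8), from 37.8% to 44.8% between libraries. FLI1 took 14.0% ± 1.71, ERG 11.3% ± 1.08, ETS1 11.1% ± 3.45 and ELK3 5.50% ± 1.85. The largest ETS share belonged to FLI1 in 5 libraries and to ETS1 in 1. In replicates 7 and 8 it belonged to ERF, an ETS repressor, with 14.2% and 19.4%. In replicate 8, ETS1 took 5.51% and ELK3 2.43% of the family. These shares rest on the reference transcript, which has 3825 bases for FLI1, while its longest transcript has 5370. Shares with the longest transcripts were not computed, and the order of ERG and FLI1 turned with that length, so the lead of FLI1 depends on it.

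The 3 SOXF genes made up 64.3% ± 3.83 of the summed RPKM of 19 SOX genes (SD, n = 8), from 58.5% to 69.9%. Their joint share was steadier than its parts: SOX18 took from 10.8% to 38.3%, SOX7 from 14.3% to 28.6% and SOX17 from 11.3% to 25.3%. Shares of 1 total are bound to trade off. SOX7, SOX18 and SOX17 had the largest share in 3, 3 and 2 libraries. GATA2 took 98.6% ± 0.423 of the GATA family and KLF2 7.04% ± 2.35 of the KLF family, where KLF6 took 44.4% ± 4.58 (SD, n = 8).

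**Figure D5:**
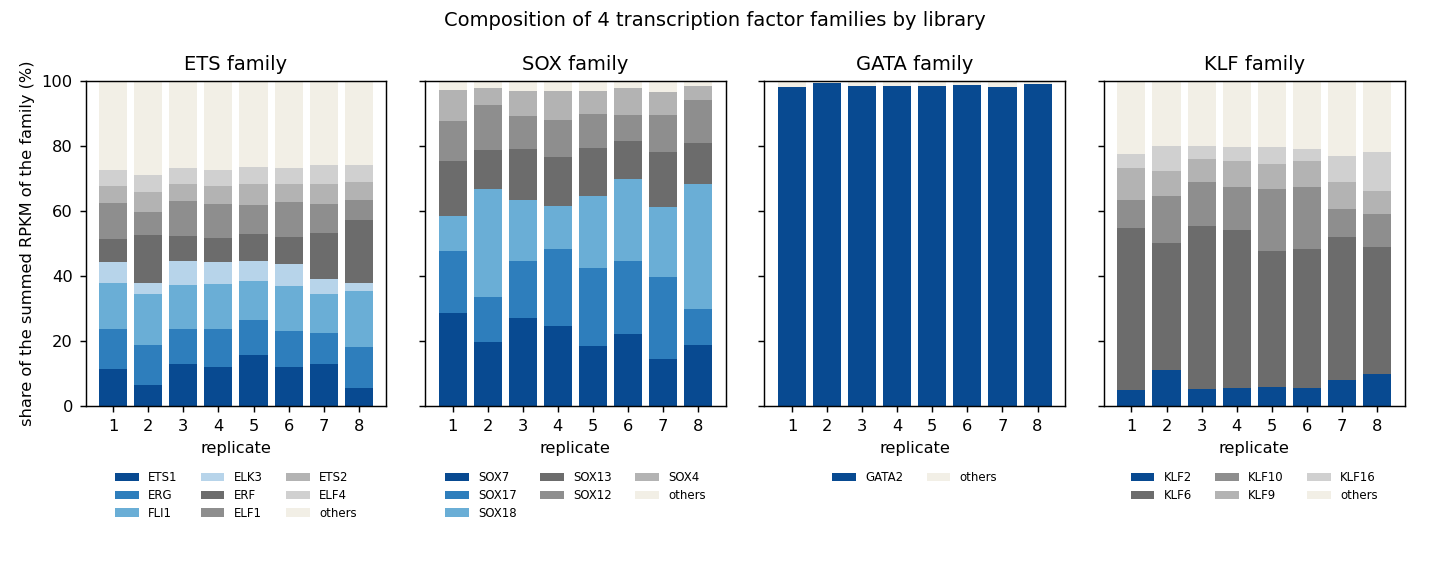
Share (%) of the summed RPKM of the ETS, SOX, GATA and KLF families in each library, with members in blue, the largest other genes in grey and the rest in cream. GATA2 takes 98.6% of its family on average, the ETS members 42.0% and the SOXF genes 64.3%, while the SOX18 part ranges from 10.8% to 38.3%.

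Among the ETS genes, 17 of 28 were detected, and 13 of the 24 that are not members, beside 51.3% of all listed genes. The median mean level of the list was 28.5 CPM. Beside ETS1 and ELK3, ETV3, a repressor of the family, lay above the variation trend (adjusted p = 1.94e-04, edgeR), where 4.66% of all detected genes did. ETV3 had 3.52 and 3.03 CPM in replicates 2 and 8, while its other libraries held 8.28 to 16.1 CPM, so it was low in the same 2 libraries as ETS1 and ELK3. Its reference transcript has 5282 bases, and these libraries had the most negative slopes on length. The part of length in this was not tested. SPI1, the blood cell ETS factor, had 0.0341 CPM on average, and SPIC had no counts in any library. ETV2, which acts early in the endothelial lineage of the embryo, had 0.538 ± 0.379 CPM (SD, n = 8) and was not detected.

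Of the 19 SOX genes 7 were detected, and of the 16 that are not members 4 were: SOX4, SOX12, SOX13 and SOX15. The list's median mean level was 0.118 CPM. SOX13 and SOX12 were the next most counted after SOX7, at 40.2 ± 3.85 and 37.2 ± 10.9 CPM (SD, n = 8), and SOX5 and SOX6 had no counts in any library. In the KLF family 12 of 17 genes were detected. Among all listed genes 51.3% were detected. KLF4, KLF7 and KLF10 lay above the variation trend (adjusted p = 0.0263, 0.0175 and 0.00305, edgeR), where 4.66% of all detected genes did. Each of these 3 was lowest in replicate 8, at 11.4, 5.98 and 53.3 CPM, and highest in replicate 6, at 52.4, 23.3 and 225 CPM. KLF6 was the most counted KLF gene at 638 ± 179 CPM, followed by KLF9 at 129 ± 33.5 CPM (SD, n = 8).

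Of 12 partners of TAL1, 9 were detected, where 51.3% of all listed genes were. None of them lay above the variation trend, beside 4.66% of all detected genes. TCF3, TCF4 and TCF12, the E proteins with which TAL1 pairs to bind DNA, had 126 ± 21.3, 111 ± 28.2 and 86.7 ± 27.5 CPM (SD, n = 8). LMO2 and LDB1, the bridging proteins of the complex, had 10.6 ± 3.15 and 48.7 ± 7.23 CPM. TAL2, LMO1 and CBFA2T3 were not detected. Of the 7 genes of the serum response factor list 6 were detected, with SRF at 89.3 ± 10.96 CPM and MKL2 at 88.8 ± 34.1 CPM. MYOCD, the muscle coactivator, had counts in 2 libraries only.

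All 10 genes of the route that leads to KLF2 were detected, where 51.3% of all listed genes were, and none lay above the variation trend. HEG1, an endothelial receptor that binds the cerebral cavernous malformation proteins, had 355 ± 104 CPM, MAP3K3 had 123 ± 14.9 CPM and MEF2A, one of the factors that bind MEF2 boxes, 119 ± 33.4 CPM (SD, n = 8). MEF2C and MEF2D had 53.1 ± 17.2 and 80.2 ± 4.95 CPM. Of 6 genes known to be induced by KLF2, 4 were detected: S1PR1 (151 ± 18.4 CPM), THBD, which encodes thrombomodulin (134 ± 42.1), TEK (91.7 ± 22.9) and ASS1 (43.6 ± 14.1). NOS3, the endothelial nitric oxide synthase, and PTGDS were not, at 0.920 ± 0.237 and 1.25 ± 0.318 CPM. All 5 genes known to be repressed by KLF2 were detected, among them EDN1, which encodes endothelin, at 476 ± 141 CPM, VCAM1 at 16.5 ± 6.53 CPM and SELE at 2.74 ± 0.940 CPM. None of the 9 detected genes of these lists lay above the variation trend, and at the 4.66% of all detected genes nothing can be read from so few.

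Of 15 genes known as targets of endothelial ETS factors, 14 were detected, where 51.3% of all listed genes were, and NOS3 was not. The median mean level of the detected targets was 164 CPM, against 37.7 over all detected genes. CLDN5 and EGFL7 lay above the variation trend (adjusted p = 7.36e-04 and 0.0137, edgeR), where 4.66% of all detected genes did. EGFL7, a secreted endothelial protein whose gene contains the microRNA gene MIR126, had 581 and 699 CPM in replicates 2 and 8, with 213 to 368 CPM elsewhere. CLDN5, a tight junction protein of the blood-brain barrier, had 237 and 252 CPM there, with 71.5 to 94.7 CPM elsewhere. CLDN5 and EGFL7 were thus highest in the libraries where ETS1 was lowest and SOX18 highest on CPM. Their reference transcripts have 1384 and 1759 bases and a GC content of 67.9% and 67.3%, and these libraries had the most negative slopes on length. The part of length and GC content in this was not tested. On CQN values the SD of EGFL7 was 0.16, near the median of all detected genes, and that of CLDN5 was 0.42.

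Among 7 factors known as enriched in brain endothelium of the mouse, 2 were detected, beside 51.3% of all listed genes. They were PPARD at 41.5 ± 3.61 CPM and ZNF551 at 10.1 ± 3.68 CPM (SD, n = 8). Among those not detected, FOXF2, FOXL2, FOXQ1 and LEF1 had mean levels from 0.0196 CPM for LEF1 to 0.260 CPM for FOXL2. Of 12 other endothelial factors 9 were detected, led by EPAS1 (1516 ± 238 CPM), NR2F2 (140 ± 15.6 CPM), which marks veins, and HHEX (85.6 ± 7.80 CPM). The arterial Notch targets HEY1 and HEY2 had 1.07 ± 0.746 and 1.23 ± 0.649 CPM and were below 1 CPM in at least 1 library. PROX1, the lymphatic factor that SOX18 can induce, had 0.0159 CPM on average and no counts in 4 libraries.

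The labelled cell type was checked against marker genes. All 12 endothelial markers were detected, where 51.3% of all listed genes were, with MCAM highest at 1096 ± 57.1 CPM (SD, n = 8). Since ERG, FLI1, GATA2 and TAL1 are also blood cell genes, 8 blood markers were read: 1 was detected, LAPTM5, at 40.6 ± 1.51 CPM. The others, PTPRC, SPI1, IKZF1, GATA1, CD53, NCKAP1L and VAV1, had means of 0.426 CPM or less, and the list's summed level ran from 38.3 to 43.4 CPM. Of 5 lymphatic endothelial markers FLT4 alone was detected, at 4.93 ± 1.19 CPM. Mural cell markers were detected in 5 of 8 cases, with CSPG4 highest at 32.9 ± 8.97 CPM and DES, NOTCH3 and KCNJ8 below 1 CPM on average. None of 5 astrocyte markers was detected, and AQP4 had no counts in any library. Of 5 neuron markers 3 were detected, with MAP2 highest at 58.1 ± 19.8 CPM, and of 6 epithelial markers 2 were, with KRT8 highest at 26.1 ± 3.79 CPM. The summed level ran from 48.3 to 72.5 CPM for the mural list and from 97.2 to 135 CPM for the neuron list. For the epithelial list it ran from 26.9 to 37.9 CPM. The labels name hCMEC/D3 cells only, so these transcripts were not assigned to other cells. How their levels relate to the members' spread was not tested.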

How the data were processed

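Polyadenylated RNA from 8 replicates of hCMEC/D3 was sequenced with TruSeq libraries, per the labels' protocols. The authors deposited 1 table with raw counts per gene and CQN-normalised values on a log2 scale (the scale was judged from the values; CQN per the file headers). The submitters' processing notes name CASAVA 1.9, TopHat2 2.0.6, HTSeq and hg19, and strand use, annotation and CQN settings are not given in the sources used here. All 16 value columns were matched to samples by title, and 0 others were present. Gene starts in the table are 1 less than in GENCODE 44 lifted to GRCh37 for 6211 genes, so printed positions add 1. Of 23346 genes, 21456 had a reference length, the canonical transcript's (19467 by symbol, 1989 by synonym).

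CPM used TMM scaling (edgeR 4.0.16, R 4.3.3). Detected means at least 1 CPM in all 8 libraries. Excess variation was tested with gof in edgeR against the dispersion trend of an intercept-only model, with Benjamini-Hochberg adjustment over 11980 genes at 0.05; in simulated counts it called 0 genes with none changed and 176 of 200 raised 4-fold in 1 library. Pair ratios used 256 sign patterns. Total counts were 69388544 to 90205244 per library. DESeq2 1.42.0 gave alternative scaling and trend.

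The members, 19 gene lists and 13 pairs were chosen with earlier results of these data known. Genes were named by rule: members, pair genes, the 3 most counted and any gene above the trend in each list (the highest, and those at 0, in lists of other cell types), and the 3 genes most like each member; a few genes under this rule are not reported here. Others named beside these (such as LOC100507392, undetected list members and further partners) were chosen after their values were seen.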

Additional observations from a re-analysis of the deposited data

Results flagged for a closer look

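The highest or lowest library stood apart from the other 7 in 6 of the 87 genes examined on CPM (Dixon's criterion). None of the 10 members was among them. Chance flags about 1 in 20 genes on this criterion. CDH5, an ETS target, had 994 CPM in replicate 2, with the next library at 666 CPM. ENG, another ETS target, had 1275 CPM in replicate 8, with the next at 804 CPM. IRF2BPL, one of the genes most like GATA2, had 84.0 CPM in replicate 6 against 64.997 CPM in the next library. KIAA1683, the gene most like SOX17, had 2.74 CPM in replicate 6 against 1.94 CPM. LAPTM5, the only blood marker detected, had 37.5 CPM in replicate 6, below the next lowest at 40.2 CPM. PTBP1, one of the genes most like ETS1 on CQN values, had 559 CPM in replicate 7 against 485 CPM.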

How the results depend on the processing

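No paired analysis was possible because the 8 libraries form 1 group. All 10 members stayed detected under every scaling, threshold and left-out library tried. None of the 627 alternative mean levels of 57 named genes moved by more than 1 SD between libraries. Leaving out 1 or 2 of 8 libraries cannot move a mean that far, and the scalings differed little. These mean levels therefore could hardly have come out otherwise, and nothing is concluded from them. The number of members above the variation trend stayed at 3 or rose to 4 under the other scalings, filters and trends; leaving out 1 library gave 1 to 3, and leaving out replicates 2 and 8, a choice made after seeing the data, left 1 (SOX18). With these 2 libraries left out 335 genes in all were called in place of 558, and with the DESeq2 fitted trend 2811. Several pair ratios depended on the length scaling. On CPM they were 0.0531 for ERG to FLI1, -0.84 for ELK3 to ELK4, -0.17 for SOX18 to SOX17, -0.78 for SOX18 to SOX7, -0.61 for SOX17 to SOX7 (adjusted p = 0.0435, exact permutation) and 0.60 for TAL1 to LYL1. On CQN values they were 0.85 for ELK3 to ELK1 (adjusted p = 0.0312, exact permutation), 0.60 for ELK3 to ELK4 (0.113), 1.29 for SOX18 to SOX17, 0.95 for SOX18 to SOX7, 1.88 for KLF2 to KLF4 and -1.95 for KLF2 to KLF6. CQN values also gave -0.265 for ERG to FLI1 and -1.33 for TAL1 to LYL1 (adjusted p = 0.0117 in each exact permutation test). With the longest transcript, ERG to FLI1 was 0.15 and TAL1 to LYL1 was -1.08. Leaving out 1 library gave 0.83 to 1.01 for ETS1 to ETS2 and 0.42 to 0.53 for ELK3 to ELK4, past the threshold without replicate 8 but not without any of the other 7 (adjusted p = 0.0508). It gave -0.06 to 0.23 for ELK3 to ELK1, -0.19 to 0.0614 for ETS1 to ERG, -0.0677 to 0.30 for SOX18 to SOX17 and -0.15 to 0.20 for SOX18 to SOX7, so these directions were not stable. Without replicates 2 and 8 the 6 libraries left cannot give a p below 0.03125, adjusted to 0.0508 here, and the ratios were -0.28 for ERG to FLI1, 1.17 for ETS1 to ETS2, 0.23 for ETS1 to ERG, 0.58 for ELK3 to ELK4, -0.29 for SOX18 to SOX17, -0.29 for SOX18 to SOX7, 8.68 for GATA2 to GATA3, 5.89 for GATA2 to GATA6, 0.53 for KLF2 to KLF4, -2.98 for KLF2 to KLF6 and -0.85 for TAL1 to LYL1. On log2(CPM + 1), 3 of the 30 genes most like a member were again so. Depth limits only genes near 0, such as GATA3 and PROX1.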
